A study of Homo sapiens with 12 samples.

Results

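Metallothioneins are small, cysteine-rich proteins that bind zinc, copper, and cadmium. The genes described are 7 metallothionein genes (MT1A, MT1E, MT1F, MT1G, MT1M, MT1X, and MT2A), the gene of their zinc-sensing transcription factor (MTF1), and the gene of a zinc exporter (SLC30A1). They were chosen by gene symbol from the count table, and all 9 symbols were found among its 58735 genes. RNA was sequenced from TIGK cells, a human gingival keratinocyte line immortalized with telomerase (hTERT). Every culture was kept at 48 mM glucose, either without L-arginine (control) or with 500 µM L-arginine (Arg), for 24 or 48 h. Each of the 4 groups had 3 libraries (A, B, and C), 12 in all. The groups shared an arginine-free base medium supplemented with insulin, glutamine, lysine, epinephrine, apo-transferrin, TGF-α, pituitary extract, and hydrocortisone, and the cells are a single line. The 3 libraries of a group were replicate treatments in multi-well plates of that line, so p-values measure the spread between such cultures. All cells of a well were sequenced together, and fewer expressing cells and less RNA per cell cannot be told apart.

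In cells, free zinc brings MTF1 to short metal response elements in the promoters of metallothionein genes and of SLC30A1. Metallothioneins then hold the metal, and SLC30A1 moves zinc out through the plasma membrane. Glucocorticoids, which include the hydrocortisone of the medium, and oxidative stress also raise metallothionein transcription in many cell types. In keratinocytes, metallothioneins are known from basal, dividing cells.

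The libraries held between 16542243 and 19040964 gene counts. All 12 keratinocyte markers of a fixed list were detected, with a summed level between 45023 and 57437 CPM (a gene's count over the library total, scaled to a common size) in each library. All CPM are given after TMM normalization, which scales the library totals so that most genes stay level. The markers of melanocytes, leukocytes, and endothelial cells summed to at most 3.05, 1.05, and 6.41 CPM in any library. The fibroblast markers summed to between 30.3 and 102.7 CPM, mostly from DCN and COL1A1. Replicate B of the 48 h control stood apart from its group. Its mitochondrially encoded genes took 1.55% of the counts, against 0.906% and 0.707% in replicates A and C, and it lay near the Arg libraries for several of the genes below. Changes of the genes described that rest on this library are therefore also given without it.

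The metallothionein genes form a cluster on the long arm of chromosome 16 and code for nearly the same protein. In GRCh38, MT2A (ENSG00000125148) runs from 56608199 to 56609497, MT1E (ENSG00000169715) from 56625475 to 56627112, MT1F from 56657694 to 56660698, and MT1X from 56682424 to 56684196, all on the plus strand. MT1M (56632233 to 56633986) and MT1A (56638666 to 56640087) are on the same strand, and MT1G (56666731 to 56668065) is on the minus strand. MTF1 (ENSG00000188786, 37809567 to 37859620) and SLC30A1 (ENSG00000170385, 211571568 to 211578742) are on the minus strand of chromosome 1. Of the 6 genes with counts, MT1X and MTF1 each overlap another annotated gene, and both of those genes had 0 counts. The coding sequences of the 4 metallothioneins with counts are shown, since their likeness bears on how reads can be told apart. They were read from GENCODE v44 transcripts (GRCh38), 5′ to 3′ without the stop codon, and capitals mark the cysteine codons that bind the metal.
MT2A: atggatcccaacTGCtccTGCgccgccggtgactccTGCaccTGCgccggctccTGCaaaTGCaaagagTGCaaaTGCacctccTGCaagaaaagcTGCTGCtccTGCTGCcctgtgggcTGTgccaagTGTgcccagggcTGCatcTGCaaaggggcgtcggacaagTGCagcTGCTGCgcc
MT1E: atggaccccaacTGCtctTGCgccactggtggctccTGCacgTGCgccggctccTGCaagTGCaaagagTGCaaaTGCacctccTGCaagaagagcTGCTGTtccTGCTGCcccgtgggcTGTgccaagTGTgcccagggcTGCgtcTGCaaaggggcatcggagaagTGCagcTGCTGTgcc
MT1X: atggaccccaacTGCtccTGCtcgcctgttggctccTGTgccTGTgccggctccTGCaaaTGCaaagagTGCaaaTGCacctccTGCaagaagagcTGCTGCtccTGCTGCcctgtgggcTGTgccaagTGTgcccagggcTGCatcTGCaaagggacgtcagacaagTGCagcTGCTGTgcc
MT1F: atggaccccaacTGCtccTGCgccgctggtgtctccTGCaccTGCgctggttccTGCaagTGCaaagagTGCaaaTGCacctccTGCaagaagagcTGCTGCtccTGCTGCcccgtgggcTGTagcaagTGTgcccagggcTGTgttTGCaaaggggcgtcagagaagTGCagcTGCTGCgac
Each of these sequences has 61 codons, of which 20 (32.8%) code for cysteine, and each is spread over 3 exons. The coding sequences of MT1A and MT1M have the same length and number of cysteine codons, and MT1G has 62 codons. Over the 21 pairs of the 7 genes, between 88.5% and 94.5% of the coding bases were identical (median 91.8%). MT2A and MT1E were identical at 92.3%. Whole transcripts differ more than their coding parts. Of all stretches of 50 bases in a transcript, 11.1% in MT2A and 5.34% in MT1E were also present in a transcript of another gene, against 51.0% in MT1X. No stretch of 150 bases, the length of a read, was shared for MT2A, MT1E, or MT1F, and 6.67% were shared for MT1X. Any other annotated gene was counted here, so sharing with a gene at the same place was not separated from sharing with another metallothionein. How reads with several possible origins were counted is not given in the sources used here, so the values of MT1X, which shares the most sequence, are uncertain.

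**Figure D1:**
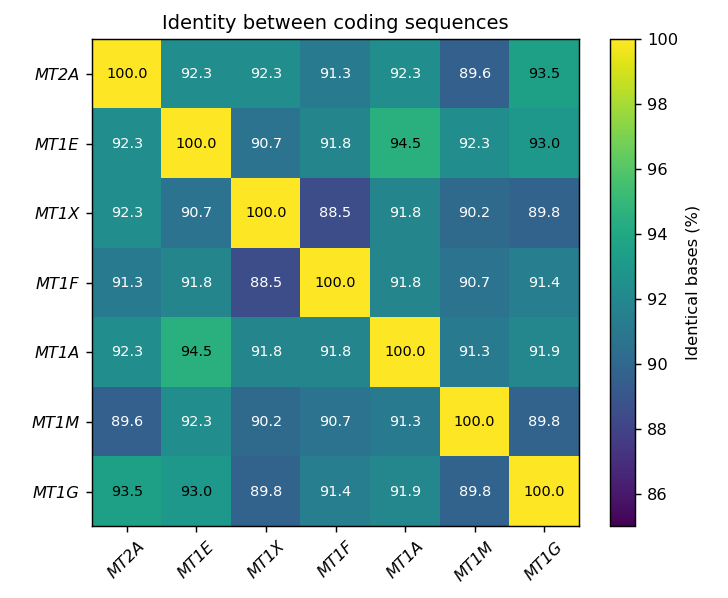
Percent of identical bases between the coding sequences of the 7 metallothionein genes. Rows and columns are genes and each cell is a pair, with the color running from 85% to 100%; the lowest pair is MT1F with MT1X at 88.5% and the highest is MT1A with MT1E at 94.5%.

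The promoters are shown because metal response elements are the sites through which MTF1 acts. RefSeq promoter sequences of GRCh38.p14 were matched for 4 of the 9 genes (MT2A, MT1X, SLC30A1, and MTF1). MT1A, MT1E, MT1F, MT1G, and MT1M were not matched. The 250 bases before the start were searched on both strands for the element's core, written TGCACNC or TGCGCNC, where N is any base. Capitals mark the matches on either strand, and none of those shown overlaps another.
MT2A, chr16:56608334-56608583, plus strand: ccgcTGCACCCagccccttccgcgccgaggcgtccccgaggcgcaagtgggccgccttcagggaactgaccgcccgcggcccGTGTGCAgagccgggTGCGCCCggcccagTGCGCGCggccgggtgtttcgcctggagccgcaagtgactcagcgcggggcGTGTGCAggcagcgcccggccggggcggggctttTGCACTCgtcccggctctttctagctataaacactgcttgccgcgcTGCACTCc
MT1X, chr16:56682220-56682469, plus strand: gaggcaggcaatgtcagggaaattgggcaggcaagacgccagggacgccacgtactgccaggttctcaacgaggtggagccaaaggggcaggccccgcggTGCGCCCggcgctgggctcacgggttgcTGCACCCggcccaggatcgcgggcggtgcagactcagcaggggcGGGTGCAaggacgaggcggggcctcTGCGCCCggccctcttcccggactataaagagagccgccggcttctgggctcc
SLC30A1, chr1:211579162-211579411, minus strand: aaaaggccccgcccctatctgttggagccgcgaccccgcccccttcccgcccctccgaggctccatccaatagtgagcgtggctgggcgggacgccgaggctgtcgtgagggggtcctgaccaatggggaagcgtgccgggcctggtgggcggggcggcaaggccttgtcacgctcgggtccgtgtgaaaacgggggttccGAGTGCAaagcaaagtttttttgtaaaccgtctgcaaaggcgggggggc
The MT2A window lies within the gene span of the count table, which begins upstream of the RefSeq start. The MT1X and MTF1 windows run partly into the spans of their genes. The SLC30A1 window lies upstream of the span of its gene without adjoining it. The numbers of cores therefore depend on the start used. The MT2A promoter held 7 cores, from position −246 to −8 relative to the start. Only 0.0313% of 35116 promoters held at least as many. The MT1X promoter held 4 cores between positions −150 and −53, a number reached by 0.370% of promoters. SLC30A1 held 1 core on the opposite strand, at position −49, and 24.8% of promoters held at least 1. MTF1 (chr1:37859593-37859842, minus strand) held 0 cores. A match describes the letters in this window and does not show binding.

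Only MT2A and MT1E were expressed at a high level. Per kilobase of exon, MT2A stood at 1888 ± 377 CPM in the 24 h control (SD, n = 3), which placed it at rank 8 among all genes. MT1E followed at 378 ± 61.05 CPM per kilobase, at rank 93. On the same length-corrected scale and in the same group, SLC30A1 (8.12 ± 0.53) and MT1X (7.73 ± 1.04) were far lower and within 1 SD of each other. MTF1 (2.99 ± 0.10) and MT1F (2.49 ± 0.25) were lowest on this scale. It divides by the deposited exonic length, 1299 bases for MT2A, 1052 for MT1E, 1773 for MT1X, and 1889 for MT1F. The GENCODE v44 transcripts read above have 401, 704, 404, and 425 bases. The ranks and the order of the less abundant genes therefore depend on the length used. In the 48 h Arg group, MT2A was still the highest of the 9 genes, at 385 ± 50.3 CPM per kilobase, but stood at rank 75, and MT1E stood at rank 269. MT1A, MT1G, and MT1M had 0 counts in every library, and a count of 0 allows a level of up to 0.155 to 0.178 CPM, depending on the library. Of 14 further metallothionein genes and pseudogenes, 10 had 0 counts in all libraries. The other 4 were MT3 with 14 counts over the 12 libraries, MT1XP1 with 19, MT1P1 with 5, and MT1DP with 1. Intervals and limits of this kind cover counting error only. The 6 detected genes passed the filter on low counts in every comparison.

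**Figure D2:**
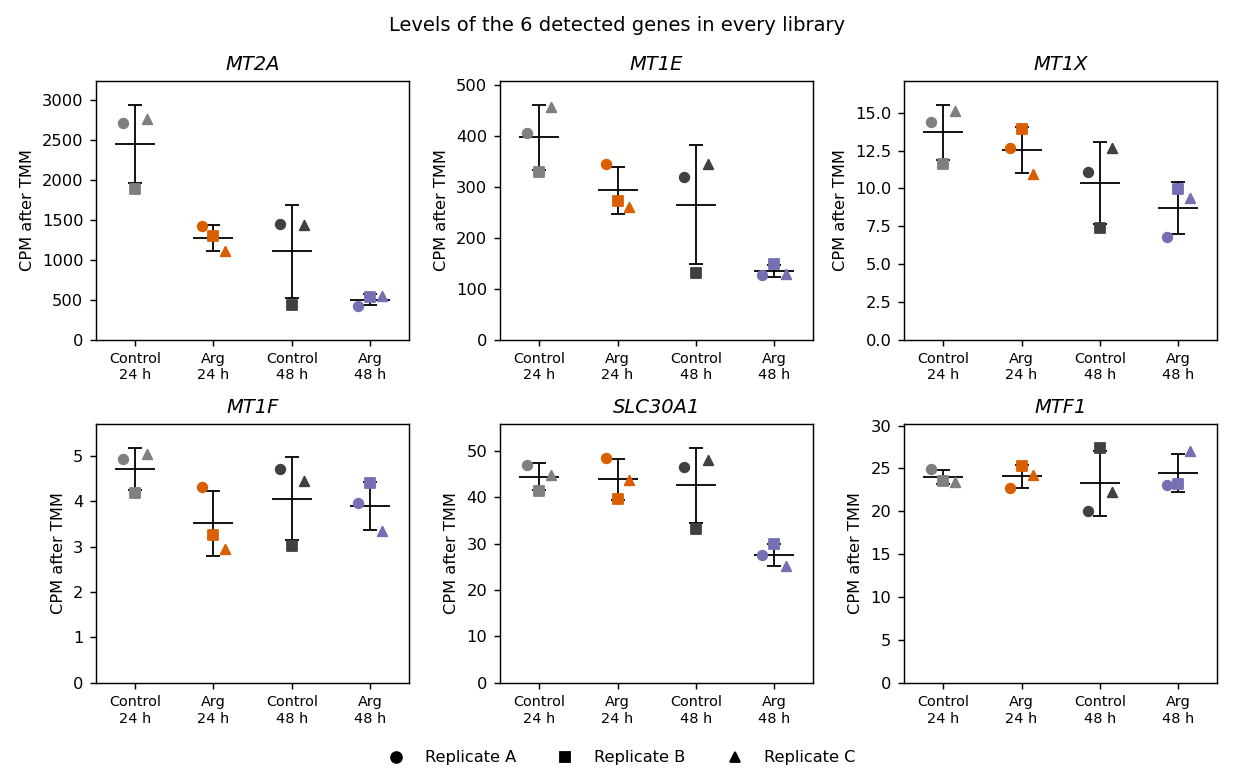
CPM after TMM normalization (y axis, starting at 0) of the 6 detected genes in the 4 groups. Each point is a library, with the letter given by its shape, and lines show the mean and SD of 3 libraries; the MT2A libraries of the 24 h Arg group (1103 to 1420 CPM) lie below those of the 24 h control (1888 to 2763 CPM), and control replicate B at 48 h lies among the 48 h Arg libraries for MT2A and MT1E.

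At 24 h, Arg-treated TIGK cells held less RNA of both abundant metallothioneins than the control. MT2A, the main metallothionein of these cells, stood at 2706, 1888, and 2763 CPM in the control libraries A, B, and C. In the Arg libraries, it stood at 1420, 1296, and 1103 CPM. All Arg libraries were lower than all control libraries. MT2A was downregulated 1.93-fold (log2 fold change −0.95 ± 0.12 SE, edgeR adjusted p = 0.000124). Here and throughout, p-values come from the quasi-likelihood test of edgeR, and adjusted p-values were corrected over every gene tested. MT1E, the other abundant isoform, stood at 406, 329.8, and 457 CPM in the control libraries and at 346, 272, and 261 CPM in the Arg libraries. The lowest control library was below the highest Arg library. MT1E was downregulated 1.36-fold (log2 fold change −0.44 ± 0.11 SE, edgeR adjusted p = 0.0274). This call was lost when control replicate A or C or Arg replicate B or C was left out (adjusted p between 0.103 and 0.142), while MT2A passed whichever library was left out.

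The other 4 detected genes did not pass the test at 24 h. MT1F, a low-level isoform, had a log2 fold change of −0.43 (SE 0.23) at 4.71 ± 0.47 CPM in the control and 3.51 ± 0.72 CPM with Arg. MT1X had a log2 fold change of −0.13 (SE 0.15), with 11.6 to 15.1 CPM in the control and 10.95 to 13.96 CPM with Arg. SLC30A1, the zinc exporter, stood at 44.5 ± 2.89 and 43.9 ± 4.41 CPM, and its log2 fold change was −0.018 (SE 0.10). MTF1, the transcription factor, stood at 24.0 ± 0.82 and 24.1 ± 1.32 CPM, with a log2 fold change of 0.0051 (SE 0.11). The adjusted p-values of these 4 genes from edgeR's test lay between 0.295 and 0.984. Thus 2 of the 6 tested genes were downregulated and 0 were upregulated. Over all 14279 genes tested at 24 h, 3.84% were downregulated, and the median log2 fold change was 0.0030.

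At 48 h, MT2A, MT1E, and SLC30A1 had lower means with Arg than in the control, and none of the 6 genes passed edgeR's test with all libraries. MT2A stood at 1441, 428, and 1438 CPM in the control libraries and at 424, 533, and 542 CPM in the Arg libraries. Control replicates A and C were above every Arg library, and replicate B lay among them. The log2 fold change of MT2A was −1.14 (SE 0.32, edgeR adjusted p = 0.181). MT1E showed the same order, at 320.2, 132, and 344 CPM in the control and 127, 149, and 129 CPM with Arg. Its log2 fold change was −0.97 (SE 0.25, edgeR adjusted p = 0.161). SLC30A1 stood at 46.5, 33.2, and 48.0 CPM in the control and at 27.5, 30.0, and 25.1 CPM with Arg. For this gene, the groups did not overlap, and control replicate B was the lowest of its group. The log2 fold change of SLC30A1 was −0.63 (SE 0.13, edgeR adjusted p = 0.133). MT1X (−0.26), MT1F (−0.059), and MTF1 (0.067) had smaller log2 fold changes, with adjusted p-values between 0.633 and 0.938 from the same test. Over all 14562 genes tested at 48 h, 0.117% were downregulated at an adjusted p under 0.05, and 1955 genes had an unadjusted p under 0.05. With DESeq2, only SLC30A1 passed. MT2A, MT1E, and SLC30A1 were among the genes with such an unadjusted p, at 0.00357, 0.00206, and 0.000435 from edgeR's test.

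Without control replicate B at 48 h, 3 of the 6 genes were downregulated. MT2A then had a log2 fold change of −1.53 (edgeR adjusted p = 5.98e-13), MT1E of −1.30 (adjusted p = 2.01e-12), and SLC30A1 of −0.78 (adjusted p = 2.73e-06). MT1X did not pass (−0.45, adjusted p = 0.0715). The same omission raised the number of all genes downregulated at 48 h from 17 to 1213. Among the 6 omissions of a single library at 48 h, MT2A, MT1E, and SLC30A1 each passed in this 1 only. The library was set apart partly by its values for these genes, and its omission leaves only control replicates A and C. Here and below, p-values without it therefore describe the dependence on this library and are not a separate test.

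**Figure D3:**
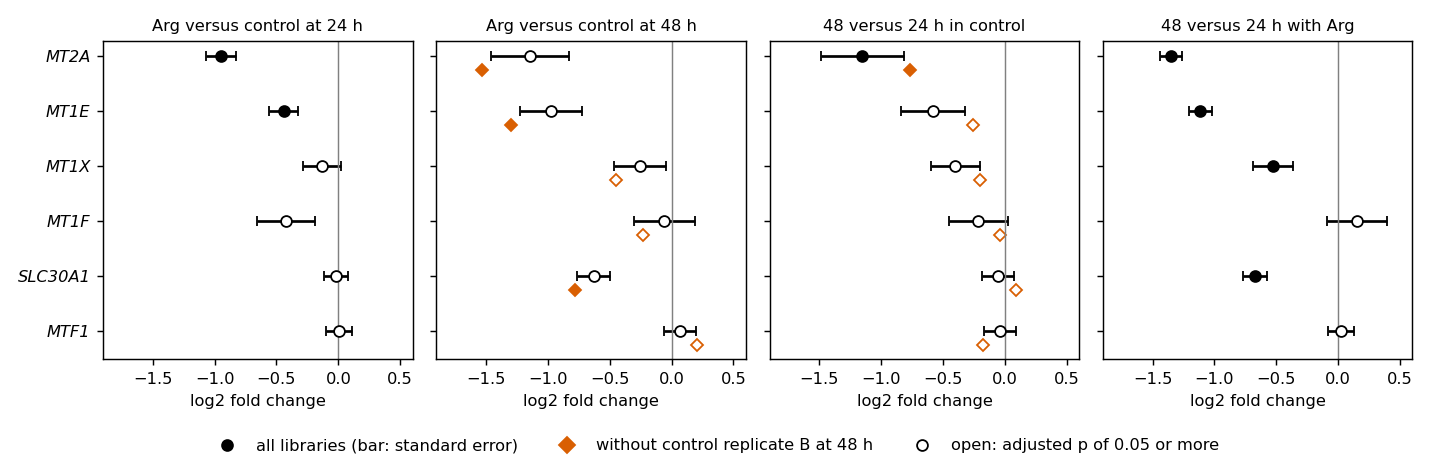
Log2 fold changes (x axis) of the 6 detected genes in the 4 comparisons between groups. Circles with bars are values and standard errors from all libraries, diamonds are values without control replicate B at 48 h, and filled symbols had an adjusted p under 0.05; at 48 h, MT2A, MT1E, and SLC30A1 are filled only without that library.

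MT2A RNA fell with time in both treatments. Between 24 and 48 h in the control, MT2A fell from 2452 ± 489 to 1102 ± 584 CPM, and the groups did not overlap. Its log2 fold change was −1.15 (SE 0.33, edgeR adjusted p = 0.0309), and without control replicate B at 48 h it was −0.77 (adjusted p = 0.00162). The MT2A call was lost without control replicate A or C at 24 h (edgeR adjusted p = 0.118 and 0.116), and with DESeq2. MT1E went from 398 ± 64.2 to 265 ± 116 CPM and did not pass (log2 fold change −0.58, edgeR adjusted p = 0.138; −0.26 and 0.117 without that library). The log2 fold changes of MT1X (−0.40), MT1F (−0.21), SLC30A1 (−0.059), and MTF1 (−0.040) did not pass either. Thus 1 of 6 genes was downregulated, where 10% of all 14449 tested genes were.

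In Arg-treated cells, the fall with time was seen in 4 genes, and in each of them every 48 h library was below every 24 h library. Here and above, the share of all genes whose groups do not overlap was not computed, so such statements only describe the values. MT2A fell from 1273 ± 159.6 to 499.7 ± 65.3 CPM (log2 fold change −1.35 ± 0.091 SE, edgeR adjusted p = 8.56e-09). MT1E fell from 293 ± 45.8 to 135 ± 11.8 CPM (log2 fold change −1.11 ± 0.092 SE, adjusted p = 6.17e-08). SLC30A1 fell from 43.9 ± 4.41 to 27.6 ± 2.45 CPM (log2 fold change −0.67 ± 0.10 SE, edgeR adjusted p = 4.98e-05). MT1X fell from 12.5 ± 1.51 to 8.71 ± 1.71 CPM (log2 fold change −0.53 ± 0.16 SE, edgeR adjusted p = 0.0210). The MT1X call was lost without Arg replicate B at 24 h (edgeR adjusted p = 0.0870) or Arg replicate A at 48 h (0.124). MT1F (0.15) and MTF1 (0.021) did not pass. Of all 14398 genes tested, 14.0% were downregulated between these groups.

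Whether the difference between Arg and control changed from 24 to 48 h was tested as an interaction over the 12 libraries. Among the 6 genes, SLC30A1 showed the largest difference between its log2 fold changes, −0.61 for 48 h minus 24 h (SE 0.17). It had an unadjusted p of 0.00205 from edgeR's test, but an adjusted p of 0.398. The differences of MT1E (−0.53), MT2A (−0.20), MT1X (−0.12), MTF1 (0.063), and MT1F (0.37) had adjusted p-values between 0.790 and 0.973. Of 15148 genes, 0.0132% passed in either direction. Without control replicate B at 48 h, MT1E (−0.86, edgeR adjusted p = 0.00925) and SLC30A1 (−0.76, adjusted p = 0.0121) passed, and MT2A did not (−0.58, adjusted p = 0.201). The range over all genes with a library left out is given in the section on processing.

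Summed over the 4 expressed genes, metallothionein RNA was highest in the 24 h control and lowest in the 48 h Arg group. The sum stood at 3131, 2234, and 3241 CPM in the 24 h control and at 1783, 1585, and 1379 CPM with Arg. At 48 h, it stood at 1777, 569.9, and 1799.6 CPM in the control and at 563, 696, and 684 CPM with Arg. The 24 h control was 1.81 times the 24 h Arg group and 4.43 times the 48 h Arg group. The 48 h control was 2.13 times the 48 h Arg group, and 2.76 times without control replicate B. The 24 h control was 2.08 times the 48 h control, and 1.60 times without that library. MT2A supplied most of the sum, and its share was 85.4% ± 0.95 in the 24 h control, 80.5% ± 1.11 in the 24 h Arg group, 78.7% ± 3.19 in the 48 h control, and 77.1% ± 1.94 in the 48 h Arg group. The counts of MT2A per count of MT1E were 6.66, 5.73, and 6.04 in the 24 h control. They were 4.11, 4.76, and 4.22 in the 24 h Arg group, 4.50, 3.25, and 4.18 in the 48 h control, and 3.33, 3.58, and 4.19 in the 48 h Arg group. All 24 h control libraries were above the other 9 libraries, and the other 3 groups overlapped. These shares follow from the levels given above and were not tested.

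**Figure D4:**
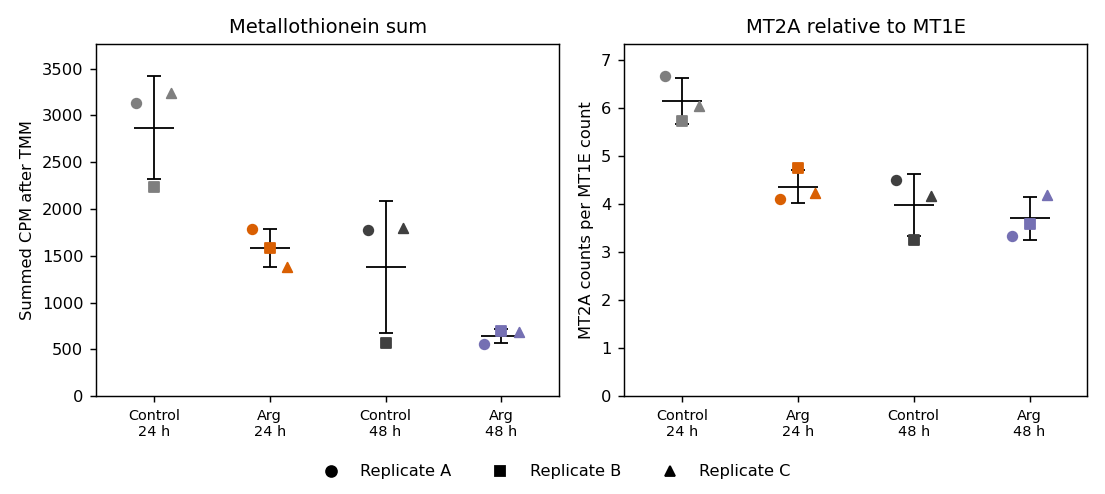
Left, the summed CPM of MT2A, MT1E, MT1X, and MT1F, and right, the counts of MT2A per count of MT1E, in the 4 groups (both y axes start at 0). Points are libraries and lines are the mean and SD of 3 libraries; the 24 h control lies highest in both panels, with a ratio between 5.73 and 6.66.

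Lists of genes with related roles were measured beside these. Among all 14279 genes tested at 24 h, 398 were upregulated and 549 downregulated with Arg. At 48 h, these counts were 0 and 17 of 14562. With time, they were 1431 and 1451 of 14449 in the control, and 2060 and 2012 of 14398 in Arg-treated cells. List counts were also made with DESeq2 and without control replicate B at 48 h, both chosen for the lists after seeing the data. With Arg at 48 h, more genes of the whole table passed under both settings than the 0 and 17 above. Those counts are given with that omission above and in the section on processing. For the other comparisons, counts over all genes are not given here by setting. List counts under these settings are therefore not to be set against the counts above. Most of the SLC30 family moves zinc out of the cytosol. Of this family, 7 genes were tested at 24 h and 6 at 48 h, SLC30A1 included. At either time, 0 passed in either direction (median log2 fold change −0.0039 and −0.11, against 0.0030 and 0.0018 over all genes). At an unadjusted p under 0.05, 0 and 2 passed, with DESeq2 0 and 1 passed, and without that library 1 rose and 1 fell at 48 h. The 2 most abundant, SLC30A9 and SLC30A6, stood at 69.4 ± 3.09 and 64.4 ± 3.58 CPM in the 24 h control and at 69.3 ± 7.57 and 60.97 ± 7.75 CPM in the 24 h Arg group. Of the SLC39 family, which brings zinc into the cytosol, 11 were tested. At 24 h, 1 was downregulated, 0 were upregulated, and the median log2 fold change was −0.064. That gene was SLC39A10, a plasma membrane importer, with 66.1 ± 8.13 CPM in the control and 47.3 ± 5.32 CPM with Arg (log2 fold change −0.48, edgeR adjusted p = 0.0123). At 48 h, 0 of the 11 passed with edgeR or DESeq2 (median −0.060, 2 at an unadjusted p under 0.05), and 3 fell without control replicate B. With time in Arg-treated cells, 2 SLC39 genes were upregulated and 3 were downregulated (2 and 4 with DESeq2). In the control, these counts were 2 and 1, and 1 and 0 without control replicate B at 48 h.

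With edgeR, 0 genes of copper or iron handling passed with Arg at either time. For copper, 16 genes were tested, with a median log2 fold change of −0.0082 at 24 h and −0.026 at 48 h. At an unadjusted p under 0.05, 6 passed at 24 h and 3 at 48 h. MTF2, a chromatin protein rather than a copper gene, was in this list and among the 6 (unadjusted p = 0.0307 from edgeR's test). DESeq2 called 1 higher at 24 h and 0 at 48 h, and without control replicate B 1 rose and 2 fell at 48 h. SOD1, the copper and zinc superoxide dismutase, stood at 275 ± 12.8 CPM in the 24 h control and 266 ± 10.9 CPM with Arg, and the next most abundant gene was the copper importer SLC31A1 (log2 fold change −0.032). For iron, 21 genes were tested, with medians of −0.0017 and 0.043. At an unadjusted p under 0.05, 3 and 2 passed, DESeq2 called 0 at either time, and without control replicate B 2 rose and 2 fell at 48 h. The ferritin subunits FTH1 and FTL, which store iron, stood at 2102 ± 192 and 1222 ± 126 CPM in the 24 h control and at 2042 ± 154 and 1174 ± 87.2 CPM with Arg. With time in Arg-treated cells, 6 iron genes were upregulated and 5 were downregulated (5 and 5 with DESeq2).

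**Figure D5:**
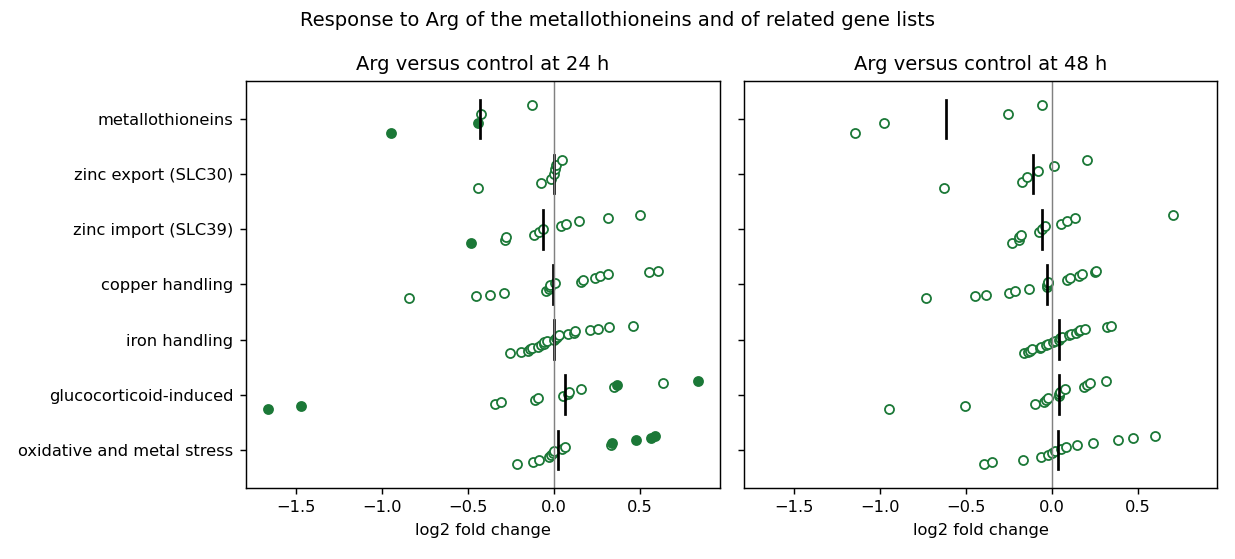
Log2 fold changes with Arg (x axis, the same in both panels) of the 4 expressed metallothioneins and of 6 lists of related genes at 24 h (left) and 48 h (right). Each circle is a gene, filled circles had an adjusted p under 0.05, and black bars are medians; at 24 h, 4 genes of oxidative and metal stress are filled to the right of 0, and at 48 h no circle is filled.

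Glucocorticoids and oxidative stress are other known inducers of metallothioneins, and lists of their target genes were compared in the same way. Of 14 glucocorticoid-induced genes tested at 24 h, 2 were upregulated and 2 were downregulated with Arg (median log2 fold change 0.065). TSC22D3, which codes for the glucocorticoid-induced leucine zipper, rose from 40.7 ± 10.1 to 72.7 ± 3.69 CPM (log2 fold change 0.84, edgeR adjusted p = 0.00100). MAP3K6 rose by 0.36 on the log2 scale (adjusted p = 0.0325). DUSP1, a phosphatase of MAP kinases that growth factors also induce, fell from 309 ± 51.6 to 112 ± 6.42 CPM (log2 fold change −1.47, edgeR adjusted p = 1.52e-07). ANGPTL4 was also downregulated, at 1.61 ± 0.37 and 0.50 ± 0.17 CPM. At 48 h with Arg, 0 of the 14 passed with edgeR (3 at an unadjusted p under 0.05) and 1 fell with DESeq2, while 2 rose and 1 fell without control replicate B. With time, 8 of 14 were upregulated and 2 were downregulated in the control (7 and 2 without control replicate B), and 7 of 13 and 1 in Arg-treated cells (8 and 1 with DESeq2). TSC22D3 rose by 1.30 on the log2 scale in the control and by 0.78 with Arg (edgeR adjusted p = 0.00186 and 2.78e-07).

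Of 14 genes of oxidative and metal stress, 4 were upregulated and 0 were downregulated with Arg at 24 h (median log2 fold change 0.025). Among all 14279 genes, 398 were upregulated and 549 downregulated there. GCLC, the catalytic subunit of the first enzyme of glutathione synthesis, rose from 90.7 ± 8.29 to 136 ± 12.3 CPM (log2 fold change 0.58, edgeR adjusted p = 0.000980). SLC7A11, the cystine importer, rose from 109.5 ± 17.2 to 162 ± 19.6 CPM, and NQO1, a quinone reductase, from 341 ± 25.4 to 476 ± 56.7 CPM. TXNRD1, a thioredoxin reductase, rose from 279 ± 7.67 to 352 ± 54.7 CPM. These 4 genes are targets of NRF2, which responds to oxidants and also acts on metallothionein genes in some cells. Other NRF2 targets did not pass at 24 h. These were SRXN1 (log2 fold change 0.33, edgeR adjusted p = 0.248), GCLM (0.0017, 0.996), and, from the iron list, HMOX1 (0.0086, 0.988). At 48 h with Arg, 0 of the 14 passed with edgeR (median 0.035, 6 at an unadjusted p under 0.05) and 2 rose with DESeq2, while 3 rose and 2 fell without control replicate B. With time, 1 of the 14 was upregulated and 5 were downregulated in the control (1 and 6 without control replicate B), and 2 and 5 in Arg-treated cells. CAT, which codes for catalase, rose by 0.31 on the log2 scale in the control and by 0.38 with Arg. GCLC rose by 0.63 with Arg, and its similar log2 fold change of 0.62 in the control did not pass (edgeR adjusted p = 0.0595). The heat shock genes HSPA1A, HSPA1B, and DNAJB1 were among those downregulated in the control (log2 fold changes −1.16, −0.89, and −0.46) and in Arg-treated cells (−1.34, −1.11, and −0.60).

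Other features of the libraries moved together with these groups. Of the 13 mitochondrially encoded protein genes, 12 (11 with DESeq2) were downregulated with Arg at 24 h (median log2 fold change −0.71), with the smallest p for MT-ND1 (−0.93), MT-CO2 (−0.85), MT-ATP6 (−0.74), MT-CO1 (−0.82), and MT-CYB (−0.71), and 0 passed at 48 h with edgeR or DESeq2 (median 0.28, 0 at an unadjusted p under 0.05). Without control replicate B, 12 of them were upregulated with Arg at 48 h. With time in Arg-treated cells, all 13 (12 with DESeq2) were upregulated (median 0.91), while MT2A fell. In the control, where MT2A also fell with time, 0 of the 13 passed with edgeR or DESeq2 (median −0.071, 2 at an unadjusted p under 0.05), and 10 were downregulated without control replicate B (median −0.54). The share of mitochondrially encoded genes in the counts lay between 1.20% and 1.30% in the 24 h control, between 0.624% and 0.802% in the 24 h Arg group, and between 1.14% and 1.31% in the 48 h Arg group. The fibroblast markers, all 8 of which had counts, summed to 34.4 to 54.4 CPM in the 24 h control and 30.3 to 41.3 CPM in the 24 h Arg group. At 48 h, they summed to 85.3 to 102.7 CPM in the control and 72.7 to 100.2 CPM with Arg. At 24 h, 1 of their 4 tested genes (DCN) was downregulated with Arg, as was 1 of the 12 keratinocyte markers (ITGA6). The endothelial markers summed to at most 3.01 CPM at 24 h and to at least 4.08 CPM at 48 h. The part of these features in the metallothionein values was not tested.

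By the correlation of log2 CPM over the 12 libraries, the genes most like the metallothionein sum among 9141 genes with a mean of at least 10 CPM were ETV4 (r = 0.987), DUSP4 (0.985), SAT1 (0.984), LYN (0.983), and FHL1 (0.982). With all libraries, each of them had the same order of group means as the sum, in which the 24 h Arg group (1582 CPM) stood above the 48 h control (1382 CPM). That order of the sum rests on control replicate B, since replicates A and C of the 48 h control (1777 and 1799.6 CPM) were above the 24 h Arg mean. ETV4, a transcription factor of the ETS family, stood on average at 72.5 CPM in the 24 h control, 44.04 in the 24 h Arg group, 31.6 in the 48 h control, and 17.3 in the 48 h Arg group. SAT1, an enzyme that acetylates polyamines, stood at 149, 86.9, 66.0, and 39.0 CPM in the same order. DUSP4, a phosphatase of MAP kinases, stood at 75.4, 34.99, 28.2, and 14.8 CPM. The genes most like SLC30A1 were GHITM (r = 0.976), SMPD2 (0.953), and COCH (0.933). A high r does not mean a change of similar size. GHITM stood at 387, 385, 382, and 358 CPM in the same order of groups, and SLC30A1 at 44.5, 43.9, 42.6, and 27.6 CPM. The genes most like MTF1 were SLC12A8 (0.803), KMT2B (0.802), and EIF4ENIF1 (0.800), with a lower r than the genes above. The 12 libraries of a correlation share 4 groups and their normalization, so the values describe likeness only.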

How the data were processed

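RNA-seq counts of TIGK cells were used, with 4 groups of 3 libraries taken from the labels. The authors filtered reads with fastp, used STAR for mapping to GRCh38 (hg38), and ran featureCounts for the gene counts, and the deposited values are raw counts that were not normalized. The deposited gene lengths are exonic bases. The annotation release, the strand setting, the treatment of reads with several origins, and tool versions are not given in the sources used here. All columns of counts were used (0 were left out).

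Groups were compared with edgeR 4.0.16 in R 4.3.3 by the quasi-likelihood test, with TMM scaling and filterByExpr on low counts, and with a fit for each pair of groups and an interaction model over all 12 libraries. Standard errors are the absolute log2 fold change divided by the square root of the F statistic. Benjamini–Hochberg correction was applied over every gene tested, with a threshold of 0.05. For 3 libraries against 3, exact permutation of a gene's values gives at best p = 0.1. The scripts were tested on simulated data. Group means and the sequence searches were computed in Python 3.11.15.

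The genes and lists were chosen with earlier results of these data known. Besides the 9 genes, the genes named are those of a list with an adjusted p under 0.05 with Arg (at most 5 per list and time, by p), the 2 most abundant of a list without such a gene, and the 5 or 3 genes most like the metallothionein sum, MTF1, or SLC30A1 by Pearson's r. The heat shock genes, CAT, COL1A1, SRXN1, GCLM, HMOX1, MTF2, and the changes of TSC22D3 and GCLC with time were chosen after their values were seen. As alternatives, DESeq2 1.42.0, its size factors in edgeR, plain library sizes, no filter, a minimum of 10 counts per library, a joint model of all groups, a replicate block, a fit without mitochondrially encoded genes, and the omission of single libraries were run.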

Additional observations from a re-analysis of the deposited data

How the results depend on the processing

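MT2A at 24 h and MT2A, MT1E, and SLC30A1 with time in Arg-treated cells stayed downregulated under all 8 alternatives that kept every library and without each library. The number of the 6 genes downregulated at 24 h (2) was 1 in a joint model of all groups and between 1 and 2 with a library left out. At 48 h (0), it was 1 with DESeq2, 3 with no filter, 1 in a joint model of all groups, and between 0 and 3 with a library left out. In the control over time (1), it was 0 with DESeq2, 2 with no filter, and between 0 and 1 with a library left out. In the interaction (0), it was 2 with no filter and between 0 and 2 with a library left out. For 24 h and for the control over time, counts over all genes under the alternatives that kept every library are not given here. Whether the counts of the 6 genes moved with the whole table there was not tested. MT1X over time in Arg-treated cells did not pass in a joint model of all groups (adjusted p = 0.0533, edgeR). For all genes at 48 h, 0 were upregulated and 17 downregulated, against 42 and 127 with DESeq2, 199 and 374 with no filter, and 4 and 37 in a joint model of all groups. For all genes in the interaction, 2 rose and 0 fell, against 9 and 12 with DESeq2, 51 and 37 with no filter, and 1 rising without the mitochondrially encoded genes. MT1F rests on 55 to 91 counts per library, which limits its precision. The cause of these differences was not tested.

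With a library left out, the number of all genes upregulated and downregulated lay between 126 and 647 and between 233 and 882 at 24 h, between 0 and 1152 and between 5 and 1213 at 48 h, between 422 and 1585 and between 406 and 1719 in the control over time, and between 0 and 28 and between 0 and 18 in the interaction. Small log2 fold changes turned sign in these fits. That of MTF1 lay between −0.034 and 0.042 at 24 h, −0.029 and 0.20 at 48 h, −0.18 and 0.055 in the control over time, −0.054 and 0.060 in Arg-treated cells over time, and −0.032 and 0.20 in the interaction. That of SLC30A1 lay between −0.098 and 0.049 at 24 h and between −0.16 and 0.091 in the control over time. That of MT1F at 48 h lay between −0.23 and 0.064, and those of MT1X and MT2A in the interaction lay between −0.32 and 0.047 and between −0.58 and 0.045. With library size only, the log2 fold changes of MTF1 (0.021) and SLC30A1 (0.00084) in the control over time were above 0.

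The letters A, B, and C were not taken to pair the libraries, since the correlation of same-lettered deviations across genes was not over 0.1 for every letter in any comparison. It lay between −0.057 and 0.030 at 24 h, −0.032 and 0.051 at 48 h, 0.044 and 0.154 in the control over time, and −0.043 and −0.011 in Arg-treated cells over time. With the letters as a replicate block, 3 genes were downregulated at 48 h, MT2A (−0.97, adjusted p = 0.0446 from edgeR's test), MT1E (−0.87, 0.0279), and SLC30A1 (−0.62, 0.0194), and 43 genes were upregulated and 141 downregulated among all genes. In the control over time, 3 passed under the block, with MT1E (−0.68, adjusted p = 0.00143) and MT1X (−0.42, 0.0443) beside MT2A. The count over all genes under the block is not given here for this comparison. Without the block, 1451 of all 14449 genes were downregulated in it. The block changed no other call of the 6 genes.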
